A study of Mus musculus with 8 samples.

Results

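The genes of the cytosolic ribosomal proteins were described here in soleus (SOL) muscle of mice that lack IRF4, an interferon regulatory factor, in skeletal muscle. Members were chosen by symbol alone, as every gene row named Rpl, Rps, Rplp or Rpsa with the usual numbering and an a, l or x ending where there is one, which gave 81 of 24054 genes. They comprise 43 large subunit genes, 30 small subunit genes, the 3 genes of the P stalk and 5 paralogues, namely Rpl3l, Rpl10l, Rpl39l, Rps4l and Rps27l. The standard ribosome also has proteins whose genes carry other names, such as Fau, Gnb2l1 (Rack1) and Rps3a1, and these are not members. The members lie on 19 chromosomes.

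The study compared 4 MI4KO mice, with both Irf4 alleles floxed and Cre driven from the skeletal muscle gene Myl1, with 4 flox littermates that carry the same floxed alleles and no Cre. All mice were C57BL/6 males, and the labels give a high fat diet. The study's methods do not name the diet or the age of the sequenced animals. Its text reports body weight and tolerance tests on chow diet and calls work on a high-fat diet ongoing. The diet of the sequenced mice is therefore uncertain. Cre under Myl1 acts in muscle fibers, so blood cells, vessel cells and other nuclei of the SOL keep Irf4. One stranded poly(A) library was made per mouse, and the mice of a group carry numbers 1 to 4 here, given from the lowest to the highest mouse number in the labels. The deposited values are CPM, that is reads on a gene relative to all reads of the mouse, with a scale per library set by TMM (trimmed mean of M-values), and they were analysed as log2(value + 1).

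A ribosome holds 1 copy of nearly every one of these proteins, so cells make them in step. Their genes are among the most transcribed in any tissue, and their mRNAs begin with a terminal oligopyrimidine (TOP) tract, a run of C and T bases at the 5′ end. LARP1 and the kinase mTOR act on this tract to set how strongly the mRNAs are translated. In skeletal muscle, making ribosomes is a known part of growth after loading, and Rpl3l, a paralogue of Rpl3, is made almost only in skeletal muscle and heart.

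Start regions are shown here because the TOP tract is what these genes share in sequence, and because IRF proteins bind DNA. RefSeq promoter windows of GRCm38.p6, from 250 bases before to 50 after each start, were found for 60 of the 81 members. A run of at least 8 pyrimidines on the sense strand, between 30 bases before and 50 after the start, was present in 48 of these 60 genes (80.0%), against 32.2% of 17492 protein-coding genes. The windows below are 30 bases long and are centred on the longest run, where the table allows, with the run in capitals. They are a few members chosen as examples, with Rpl15 and Rpl35 for long runs close to the start, Rpl14, Rpl34, Rpl26 and Rps6 because their values are given per mouse, and Rpl3l as the muscle paralogue.
Rpl15: gagaaagCCTTCTTCCTTTCCTCTggcggc
Rpl35: gccccgCCCTTTCCTCTTTCTCTCgaacca
Rpl14: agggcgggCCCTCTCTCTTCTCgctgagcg
Rpl34: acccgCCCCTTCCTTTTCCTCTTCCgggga
Rpl26: gcgtgtagTTCTCTTTCCTTTTgcggccat
Rps6: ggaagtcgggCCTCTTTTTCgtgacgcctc
Rpl3l: tggtggggaggCCCCTTCCTaacctgcagg

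These windows lie at chr14:18270968-18270997 on the minus strand (Rpl15), chr2:39005115-39005144 on the minus strand (Rpl35), chr9:120571501-120571530 on the plus strand (Rpl14), chr3:130730330-130730359 on the minus strand (Rpl34), chr11:68901579-68901608 on the plus strand (Rpl26), chr4:86857349-86857378 on the minus strand (Rps6) and chr17:24727846-24727875 on the plus strand (Rpl3l). In Rpl15 the run is 17 bases long and begins 4 bases before the annotated start, while in Rpl3l it is 9 bases long and begins 31 bases after it.

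IRF proteins bind a pair of GAAA boxes, as in the interferon-stimulated response element. The letters GAAANNGAAA, searched on both strands of the same windows, were found in 7 of 60 members (11.7%) and in 3.94% of protein-coding genes. They are printed below with 5 bases on each side, read on the strand of the match, with the match in capitals.
Rpl4: cacagGAAAAGGAAAgactt
Rpl5: gatgaGAAAGGGAAAtagag
Rpl27a: tggcaGAAAGGGAAAaggga
Rpl38: ctgctGAAATTGAAAtgatg
Rps7: cctagGAAAAAGAAAgaaag
Rps19: ccaagGAAACGGAAAgagga
Rps23: tgcctGAAAAGGAAAtaaca

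Their positions are chr9:64173366-64173385 (Rpl4, minus strand), chr5:107900395-107900414 (Rpl5, minus strand), chr7:109519195-109519214 (Rpl27a, minus strand), chr11:114668474-114668493 (Rpl38, plus strand), chr12:28636153-28636172 (Rps7, plus strand), chr7:24884412-24884431 (Rps19, plus strand) and chr13:90922956-90922975 (Rps23, plus strand). The Rpl27a match overlaps the pyrimidine run of that gene, read on the other strand. The Rpl4 match, from 16 bases before the start, also consists of pyrimidines on the sense strand, apart from the longest run of that gene. So do the Rpl5 and Rps7 matches, from 128 and 214 bases before the start. The Ets-type letters CCGGAAG, on either strand, were found in 25 of 60 members (41.7%) against 12.9% of protein-coding genes, and CTCGCGAG was found in 7 of 60 (11.7%) against 1.41%. A match is a run of letters in these windows and was not tested for binding.

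Reads on genes ranged from 13417512 to 16384565 per mouse, so that 3 reads correspond to a value between 0.181 and 0.225. Irf4 itself was near this limit, with 4 to 23 reads per mouse. Its values were 0.686, 1.46, 1.58 and 1.68 in flox mice and 0.725, 0.840, 0.266 and 1.03 in MI4KO mice. The groups overlapped, with flox 1 below 3 of the 4 MI4KO mice, and the log2 difference was -0.45 (SE 0.20; limma p = 0.0402, adjusted p = 1.0; exact permutation p = 0.114). On the recovered reads the log2 difference was -0.86 by edgeR and -0.87 by DESeq2, and neither passed an unadjusted p of 0.05. The defining transcripts of the tissue were abundant, with Myh7, the slow myosin of SOL, between 11079 and 14577 in all mice, whereas the fast myosin Myh4 varied from 34.5 to 2496. The ribosomal RNA precursor row Rn45s was at 17980 and 20320 in MI4KO 2 and MI4KO 1, and between 40897 and 66561 in the other 6 mice.

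Ribosomal protein genes took 1.98%, 2.15%, 2.01% and 2.0% of the reads in flox mice and 2.20%, 2.19%, 1.98% and 1.88% in MI4KO mice. The groups overlapped, at 2.03% ± 0.078 (SD, n = 4) and 2.06% ± 0.157 (SD, n = 4). MI4KO 1 and MI4KO 2, where Rn45s was low, had the highest shares, and the part of Rn45s in them was not tested. Outside the 20 most abundant genes the share was 2.70% ± 0.100 in flox mice and 2.67% ± 0.157 in MI4KO mice (SD, n = 4 each). In bulk muscle, a smaller number of cells of a type and less RNA per cell cannot be told apart.

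Per kilobase of annotated transcript, Rps2, a small subunit protein at the mRNA entry side, had the highest level of the members, at 1003 ± 50.6 (SD, n = 8 mice). The stalk genes Rplp0 and Rplp1, whose proteins recruit translation factors, followed at 786 ± 53.7 and 780.1 ± 47.2, and this pair differed by less than its spread. Rpl23a and Rps15 were next, at 610 ± 30.4 and 607 ± 38.0, and did not differ beyond their spread either. The lowest levels among the 76 genes were those of Rpl3 (59.9 ± 8.71) and of Rps20 (62.0 ± 3.56), although the length used for Rps20, 3706 bases, is long for so small a protein and lowers its value. Rps16, Rpl37 and Rpl39 stood between 133 and 147. The lengths used for them were 1109, 835 and 612 bases, and a long transcript lowers these values too. The median over the 76 genes was 310.0, with quartiles at 253 and 422, and the highest level was 16.7 times the lowest. These levels carry an uncertainty from pseudogenes, since 60 of the 81 members have named pseudogenes in GENCODE M21, 298 in all, to which short reads can be assigned.

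The question of the comparison is whether loss of IRF4 in muscle changed gene expression, and for the ribosomal proteins no gene passed an adjusted p of 0.05. Of the 81 members, 79 reached a value of 1 in 4 or more of the 8 mice and were tested, and Rpl10l and Rpl39l did not. At an adjusted p under 0.05, 0 of 79 members were called, beside 0.00% of the 11865 genes tested by limma. At an unadjusted p under 0.05, 1 of 79 was called, the large subunit gene Rpl26, which was lower in MI4KO mice, beside 3.36% of all genes tested and 2.95% called lower. Of the 1692 other genes with a mean value in the range of the 76 genes outside the paralogues, 1.48% were called at this limit. When the change also had to reach 1.5-fold, 0 of 79 were called, beside 0.219% of all genes. In 0 of 79 members were all 4 MI4KO mice below or above all 4 flox mice, beside 1.7% of all genes lower and 0.371% higher in that way. edgeR's quasi-likelihood test and DESeq2 on the recovered reads each gave 0 members at an adjusted p under 0.05 and 1, again Rpl26, without adjustment.

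**Figure D1:**
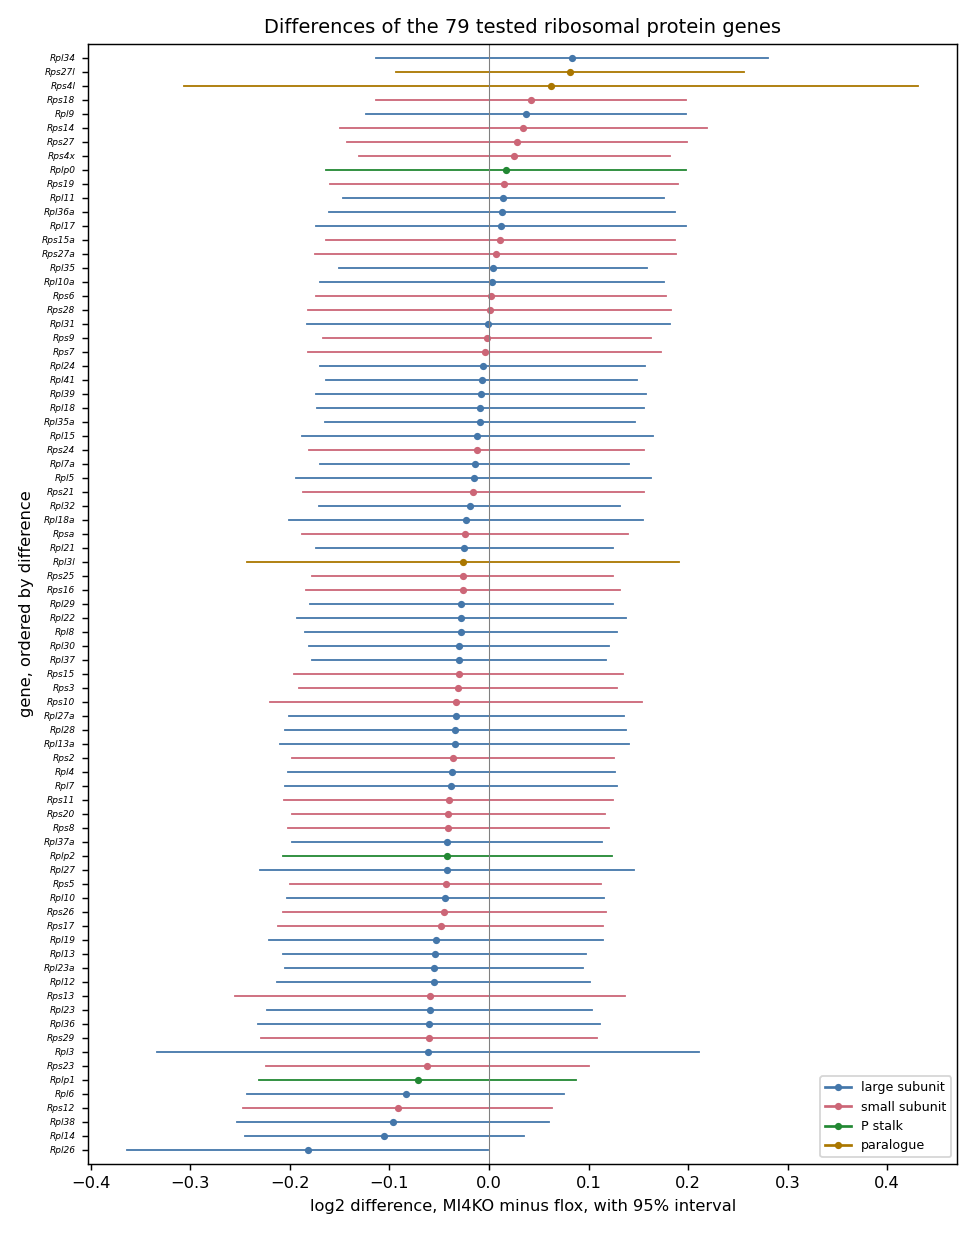
Log2 difference of each of the 79 tested ribosomal protein genes, MI4KO minus flox (n = 4 mice each), on the log2(value + 1) scale with its 95% interval from limma. Genes are ordered by difference and coloured by class; the interval of Rpl26 alone ends just below 0.

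The differences were small and their intervals narrow. They ran from -0.18 for Rpl26 to 0.08 for Rpl34 on the log2 scale, with a median SE of 0.076. For the 76 genes outside the paralogues, the widest interval bounds were -0.36 (Rpl26) and 0.28 (Rpl34), that is 1.29-fold lower and 1.21-fold higher. All 76 intervals lay within 0.5 of 0 on the log2 scale, and 74 lay within 0.3. The medians were -0.028 for the large subunit (36 of 43 genes lower by sign), -0.026 for the small subunit (21 of 30) and -0.042 for the 3 stalk genes (2 of 3), and these were not tested against each other.

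By sign alone, 60 members were lower and 19 higher in MI4KO mice, that is 75.9% lower, beside 56.2% of all genes tested. The members' median difference was -0.028 and that of all genes was -0.015. This direction depended on the scaling and on single mice. It was -0.007 with median-of-ratios scaling, -0.002 with TMM computed without the ribosomal protein genes, and 0.017 with scaling to library size. Without MI4KO 4 the median was 0.025, without MI4KO 1 it was -0.049, without MI4KO 3 it was -0.053, and without flox 3 it was -0.005. Within the mice of the lower label numbers (MI4KO 1 and 2 against flox 1) it was 0.067, and within those of the higher numbers (MI4KO 3 and 4 against flox 2, 3 and 4) it was -0.075.

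The members moved together from mouse to mouse. For each mouse, a shift was taken as the mean over the 76 genes of log2(value + 1) minus the gene's mean over the 8 mice. It was -0.042, 0.017, 0.079 and -0.002 in flox mice and 0.069, -0.020, 0.066 and -0.167 in MI4KO mice. MI4KO 4 stood lowest, and the other 3 MI4KO mice lay within the range of the flox mice. In MI4KO 4, 71 of the 76 genes had their lowest value of the 8 mice, and the shift was -0.172 over the small subunit, -0.163 over the large subunit and -0.178 over the stalk. A median shift was also taken over the 1692 other genes in the same range of values. It was 0.009, -0.057, 0.052 and -0.014 in flox mice and 0.030, -0.068, 0.105 and -0.036 in MI4KO mice. Its sign was opposite to that of the members in flox 1 and flox 2 and the same in the other mice. The part of the members' shift that is common to a whole library was not tested.

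**Figure D2:**
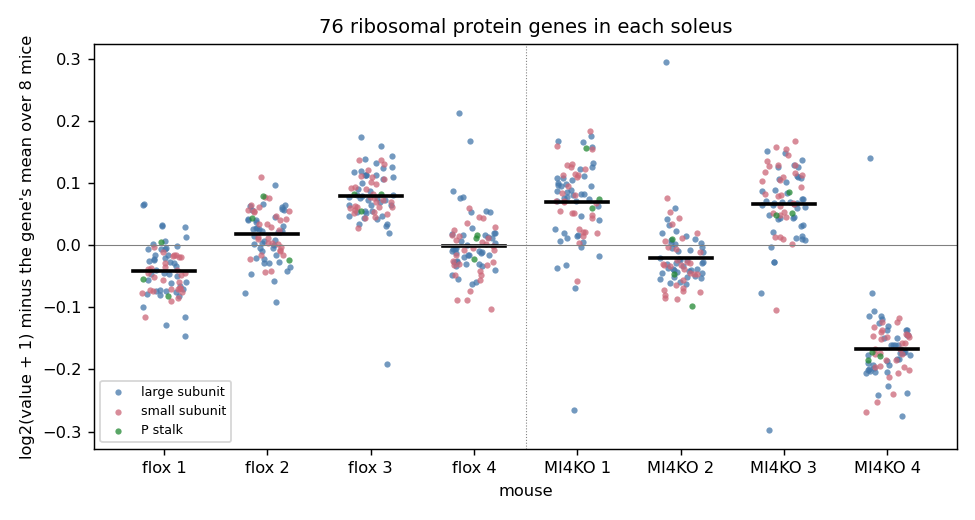
Each point is 1 of 76 ribosomal protein genes in 1 mouse, as log2(value + 1) minus the gene's mean over the 8 mice, and the black lines are the means per mouse. MI4KO 4 sits at -0.167, and the other 7 mice between -0.042 and 0.079; the points far below their mouse's line include Rpl26 in MI4KO 1 and Rpl3 in MI4KO 3.

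MI4KO 4 remained the lowest mouse under other scalings, at -0.150 with TMM without these genes, -0.149 with median-of-ratios scaling and -0.118 with library size. Then 69, 70 and 61 of the 76 genes had their lowest value in it. Over all genes tested its shift was -0.015. The mean shift of the slow muscle genes (10 tested) was also lowest in MI4KO 4, at -0.204. That of the fast muscle genes (9 tested) was highest there, at 0.555, but flox 1 and flox 2 were close, at 0.489 and 0.517. This mean did not hold gene by gene, since Myh4 and Actn3 were higher in flox 2 (2496 and 334) than in MI4KO 4 (2174 and 273). Adipocyte genes (6 tested) were at 0.580 in MI4KO 4 and -0.928 in MI4KO 1, and the 6 fibroblast genes were at 0.291 and -0.426. The part of these cell types in the shift was not tested.

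The spread of the members was slightly below that of other genes in their range of values. The median SD over the 8 mice was 0.094 on the log2 scale, beside 0.109 for the 1692 genes of the same range of values. Those genes were not matched to the members by level within that range. The mean of all pairwise correlations across the 8 mice was 0.736 among the 76 genes, 0.570 among 77 mitochondrial ribosomal protein genes and 0.232 among the genes of the same level range. All points share the same 8 libraries and their scaling, and the correlations are given as a description. They include MI4KO 4, in which 71 of the 76 genes were lowest. A gene correlated with the mean of the others at a median of 0.903, and 67 of 76 did so above 0.8. The 3 genes below 0.5 were Rpl34 (-0.37), Rpl3 (0.27) and Rpl26 (0.35), each of which is described in what follows.

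Rpl26, whose protein sits at the exit tunnel of the large subunit, was the 1 member past an unadjusted p of 0.05. Its values were 218, 232, 245 and 230 in flox mice and 180.3, 211, 233 and 194 in MI4KO mice. MI4KO 1 and MI4KO 4 were the lowest mice, MI4KO 2 was below all flox mice, and MI4KO 3 lay within the flox range. The log2 difference was -0.18 (95% interval -0.36 to -0.00134; limma p = 0.0486, adjusted p = 1.0; exact permutation p = 0.114, smallest possible 0.0286). It did not stay past 0.05 when MI4KO 1, 2 or 4 or flox 2, 3 or 4 was left out, with p between 0.0564 (without MI4KO 2) and 0.156 (without MI4KO 1). Without MI4KO 3, p was 0.00438 and the difference -0.25. The call was also lost with the run of label numbers as a covariate, with library-size scaling, with TMM computed without these genes and in limma without the trend. The difference was -0.16 within the lower label numbers and -0.15 within the higher, with no test in either.

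Rpl26 has 6 named pseudogenes, and none of them has a row of its own in the deposited table under that name. Its shift less the median shift of the 76 genes, itself included, was -0.342 in MI4KO 1 and between -0.011 and 0.098 in the other 7 mice.

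**Figure D3:**
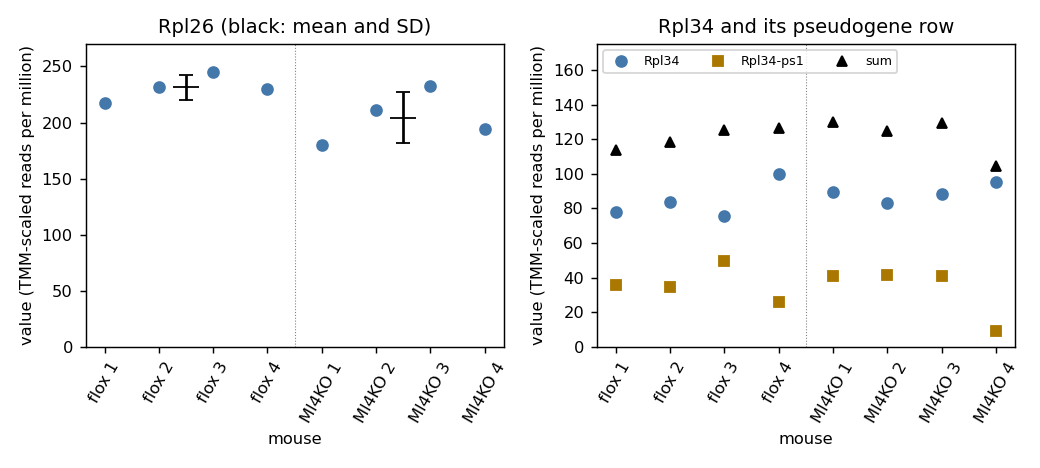
Left, the value of Rpl26 in each mouse, with the mean and SD of each group of 4 in black. Right, Rpl34, the row of its pseudogene Rpl34-ps1 and their sum; the sum spans 105 to 130.1, while Rpl34-ps1 is at 9.49 in MI4KO 4.

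Rpl34, another large subunit gene, ran against the rest. It was 77.9, 83.9, 75.5 and 100.1 in flox mice and 89.2, 83.1, 88.3 and 95.2 in MI4KO mice, and the groups overlapped (log2 difference 0.08, SE 0.09; exact permutation p = 0.400; limma adjusted p = 1.0). The row of its pseudogene Rpl34-ps1 was 35.8, 34.5, 49.9 and 26.1 in flox mice and 40.8, 41.7, 40.9 and 9.49 in MI4KO mice. The mice with the highest Rpl34, flox 4 and MI4KO 4, had the lowest Rpl34-ps1. Near-identical copies share reads, so the split between these rows is uncertain. The sum of both rows ranged from 105 to 130.1, correlated at 0.892 with the mean of the other members across the 8 mice, and differed by 0.011 on the log2 scale between the groups.

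Rpl14, a large subunit gene with the second lowest difference, was 165, 168, 179 and 174 in flox mice and 163, 166, 157 and 152 in MI4KO mice. MI4KO 1, 3 and 4 were below all flox mice, and MI4KO 2 was above flox 1. The log2 difference was -0.11 (SE 0.06; limma p = 0.129, adjusted p = 1.0; exact permutation p = 0.0571). With its pseudogene row Rpl14-ps1, at 33.5 to 55.4, the summed difference was -0.075. Rpl38, known for its role in translation of Hox mRNAs, had a difference of -0.10 (SE 0.07), Rps12 one of -0.09 (SE 0.07) and Rpl6 one of -0.08 (SE 0.07), and these groups overlapped too. At the other end, Rps18 had 0.04 (SE 0.07) and Rpl9 had 0.04 (SE 0.07).

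Other pseudogene rows carried reads as well. Rpl31-ps12 was between 73.2 and 98.4, Rps15a-ps6 between 43.3 and 54.0, and Rps15a-ps4 between 1.62 and 5.51. Rplp2-ps1 and Rps19-ps3 were at most 1.79, and Rps27rt had no read in any mouse. These rows are not members, and their reads may come from the parent genes.

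Rpl3 and its muscle paralogue Rpl3l showed the largest spread among well-read members. Rpl3 was 75.9, 81.1, 81.3 and 90.2 in flox mice and 89.6, 98.6, 65.1 and 66.1 in MI4KO mice, so that MI4KO 1 and 2 lay in the upper part and MI4KO 3 and 4 below every flox mouse. Rpl3l was 513, 543, 565 and 498 in flox mice and 499, 457, 644 and 497 in MI4KO mice, with MI4KO 3 highest and MI4KO 2 lowest. Neither gene differed between the groups beyond its spread (log2 difference -0.06, SE 0.13, exact permutation p = 0.686 for Rpl3; -0.03, SE 0.10, p = 0.886 for Rpl3l; both limma adjusted p = 1.0).

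Per kilobase, Rpl3l exceeded Rpl3 in every mouse. The ratio was 6.64, 6.58, 6.82 and 5.43 in flox mice and 5.47, 4.55, 9.72 and 7.38 in MI4KO mice. MI4KO mice held both the lowest and the highest ratio, and their means were 6.37 ± 0.635 for flox and 6.78 ± 2.29 for MI4KO (SD, n = 4). Rpl3l thus made up 86.3% ± 2.64 of the summed level of the pair (SD, n = 8). On the log2 scale the ratio differed by 0.035 (exact permutation p = 0.914, adjusted over 6 pairs 0.943).

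**Figure D4:**
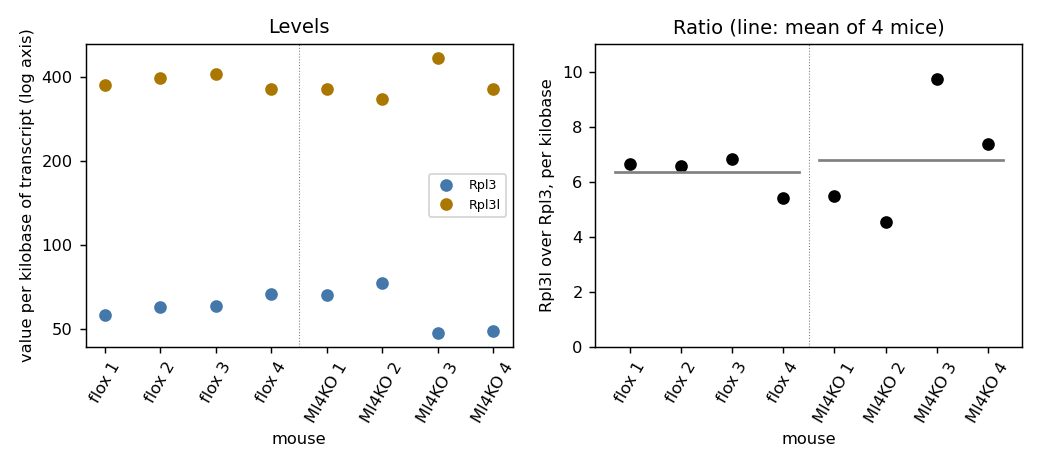
Left, value per kilobase of transcript of Rpl3 and Rpl3l in each mouse, on a log axis. Right, the ratio of Rpl3l to Rpl3 per kilobase, with the mean of each group of 4 as a line; the flox mice sit between 5.43 and 6.82 and the MI4KO mice between 4.55 and 9.72.

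Mice with more Rpl3l tended to have less Rpl3, with Pearson's r of -0.645 and Spearman's rho of -0.548 over the 8 mice. This did not pass a permutation test (exact p = 0.0918 and 0.171, adjusted over 6 pairs 0.152 and 0.342). Without MI4KO 3 and 4, the mice farthest from the median of Rpl3, r was -0.774. It was -0.349 within the flox mice and -0.712 within the MI4KO mice, and -0.428 within the higher label numbers and -0.902 within the lower. The contrast between groups turned with the label numbers. Rpl3 differed by 0.30 on the log2 scale within the lower numbers and by -0.35 within the higher, and the log2 ratio of Rpl3l to Rpl3 by -0.41 and 0.43. These runs hold 2 MI4KO mice against 1 flox mouse, and 2 against 3. Without MI4KO 1 and 2, a choice made after the values were seen, Rpl3 and the small subunit gene Rps13 passed an unadjusted p of 0.05, with differences of -0.32 and -0.21 (limma adjusted p = 0.733 and 0.797).

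Most of the other paralogues had few reads beside their partners. Rpl10l and Rpl39l, known from testis, had 9 reads each over all 8 mice, with at most 3 and 2 in any mouse, and cannot be compared at this depth. Rps4l was between 1.58 and 3.42 (21 to 52 reads), against 264 to 319 for Rps4x. Rps27l, a gene known as a p53 target, was between 32.1 and 39.4 and made up 13.5% of its pair with Rps27 per kilobase. Rpl22l1 and Rpl7l1 made up 8.90% and 10.3% of theirs. Rpl36al stood apart, at 48.2% of its pair with Rpl36a.

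None of the 6 tested pairs shifted between the groups beyond its spread (exact permutation p from 0.114 to 0.943, adjusted 0.514 to 0.943). The largest difference in log2 ratio was that of Rpl22l1 to Rpl22, at 0.18 (p = 0.257, exact permutation test). Rpl22l1 was 15.6, 19.0, 14.6 and 13.2 in flox mice and 23.6, 17.9, 16.2 and 13.1 in MI4KO mice, with only MI4KO 1 above the flox range. Its log2 difference was 0.15 (95% interval -0.19 to 0.49; exact permutation p = 0.486; limma adjusted p = 1.0).

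The groups also overlapped in several further genes, some with a known role outside the ribosome. Rps6, the phosphorylated target of the S6 kinases, was 291.3, 307, 309 and 291.2 in flox mice and 323, 294, 328 and 259.7 in MI4KO mice. MI4KO mice were both highest and lowest, and the difference was 0.002 on the log2 scale (SE 0.08; exact permutation p = 0.971; limma adjusted p = 1.0). Rpl5 and Rpl11, which bind Mdm2 when ribosome assembly fails, had differences of -0.016 (SE 0.08) and 0.014 (SE 0.07). Rpsa, also known as a laminin receptor, had -0.024 (SE 0.08), and Rplp0, often used as a reference gene, had 0.017 (SE 0.08). Rplp1 and Rplp2, the acidic stalk proteins, had -0.072 (SE 0.07) and -0.042 (SE 0.08). The member Rps27a and the non-member Fau, made as fusions to ubiquitin and to a ubiquitin-like protein, had 0.007 and -0.017 (SE 0.08 each).

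The 7 members with the letters GAAANNGAAA in their promoter window had a median difference of -0.033, from -0.10 (Rpl38) to 0.015 (Rps19). The tested members with a window and without these letters had a median of -0.024. None of the 7 passed an unadjusted p of 0.05. The 47 tested genes with a pyrimidine run had a median of -0.016 and the 11 tested without one had -0.027.

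Genes that act with the ribosomal proteins were taken from 5 lists, and 0 genes of any of them had an unadjusted p under 0.05 by limma, beside 3.36% of all genes tested, or an adjusted one. These were ribosomal proteins of other names (7 tested, median difference -0.017), translation genes with TOP mRNAs (21 tested, -0.016), ribosome assembly and RNA polymerase I genes (47 tested, 0.018), mTOR and TOP control genes (25 tested, 0.035) and p53 surveillance genes (10 tested, 0.011). The median over all genes was -0.015. Of the 110 genes, 1 had groups that did not overlap, Eif4e, which encodes the protein that binds the mRNA cap to start translation, beside 2.07% of all genes tested in either direction. It was 83.9, 81.2, 82.3 and 78.7 in flox mice and 98.0, 88.0, 85.8 and 88.4 in MI4KO mice, so that every MI4KO mouse was above every flox mouse. Its log2 difference was 0.14 (95% interval -0.0064 to 0.29; limma p = 0.0592, adjusted p = 1.0; exact permutation p = 0.0286, the smallest possible). Any gene whose groups do not overlap gets this exact p, so it adds nothing to the way Eif4e was picked. In 9 of 21 alternatives the unadjusted p of Eif4e was under 0.05. Genes named from these lists were picked with their values in view.

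Of the translation genes, Eef1a1, the elongation factor of most tissues, was 457 to 497 in flox mice and 469 to 500.1 in MI4KO mice, with a difference of -0.003 (SE 0.06). Eef2, the translocation factor, had -0.08 (SE 0.10) and Tpt1, a classic TOP mRNA, -0.03 (SE 0.10). The ends of this list were Naca at -0.09 and Snhg1 at 0.17. In the assembly list they were Polr1c, a polymerase I subunit, at -0.14 and Nvl at 0.16.

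Among the control genes, Mtor differed by 0.03 (SE 0.07) and Larp1 by 0.002 (SE 0.07), and the ends were the mTOR inhibitors Sesn2 at -0.18 and Ddit4 at 0.26. In the p53 list, Bbc3 had -0.25 and Cdkn1a, a cell cycle inhibitor, had 0.35. The high ends of these last lists came from 1 mouse: MI4KO 3 had Ddit4 at 90.1 and Cdkn1a at 49.9, against 10.3 to 13.5 and 12.5 to 15.2 in the other MI4KO mice.

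**Figure D5:**
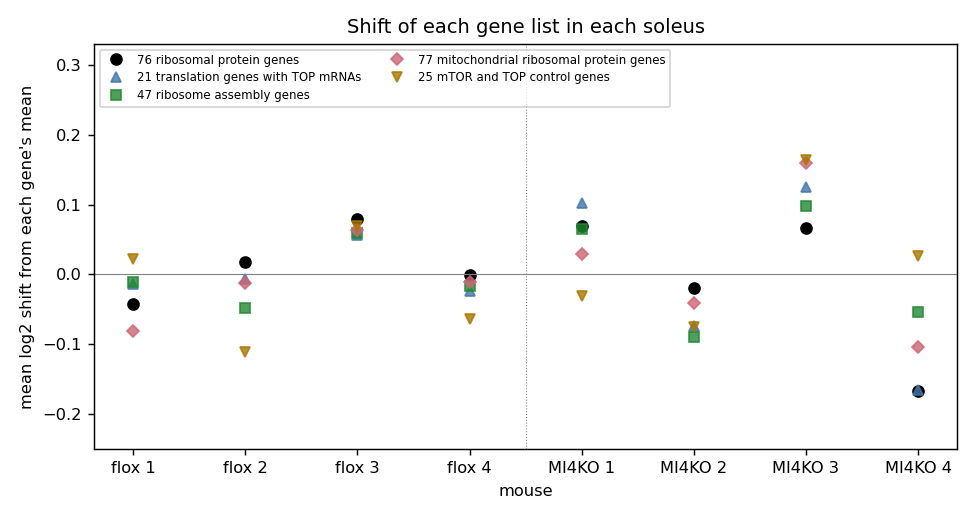
Mean log2 shift of each gene list in each mouse, from each gene's mean over the 8 mice. The ribosomal protein genes and the TOP translation genes both sit at -0.17 in MI4KO 4, while the mTOR and TOP control genes sit at 0.026 there.

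In MI4KO 4, the mouse with the lowest ribosomal protein genes, the TOP translation genes were also at their lowest (-0.166), as were the ribosomal proteins of other names (-0.189) and the mitochondrial ribosomal protein genes (-0.104). Assembly genes stood at -0.054 there and at -0.090 in MI4KO 2, their lowest mouse. Control genes stood at 0.026. The 77 mitochondrial ribosomal protein genes had a median difference of 0.019 between the groups, and 0 of them had an unadjusted p under 0.05, beside 3.36% of all genes tested.

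Markers of other cell types were followed beside these values. The 10 lymphocyte genes, of cells that use Irf4, summed to between 1.06 and 1.81 per mouse and none passed the filter, and of the neutrophil genes Mpo and Elane were at 0 in all mice. Of the 7 endothelial genes, Kdr and Cdh5 were lower in MI4KO mice at an unadjusted p under 0.05 (log2 differences -0.37 and -0.29). So were Cfd of the 6 adipocyte genes (-0.65), Hba-a1 of the 7 erythroid genes (-0.28) and Cyp2e1 of the 2 liver genes tested (-0.96). All of these had an adjusted p of 1.0 by limma, and 2.95% of all genes tested were called lower without adjustment. By sign, 1 adipocyte gene (Lep, 0.11) and 1 erythroid gene (Hbb-bs, 1.28) were higher in MI4KO mice. Hbb-bs was at 0 in flox 1, flox 3, flox 4 and MI4KO 3. Hbb-bt and Hbb-b2 had the same value in every mouse, so the 7 erythroid genes are not all separate signals. The endothelial genes summed to 378 to 453 in flox mice and to 288 to 404 in MI4KO mice, and the 20 listed liver genes to 236 in flox 1 and to 4.57 to 24.5 in the other mice. Their part in the values of the ribosomal protein genes was not tested.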

How the data were processed

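SOL RNA of 8 mice was sequenced as stranded poly(A) libraries with single reads of 50 bases. The authors demultiplexed reads with bcl2fastq 2.17, mapped them to UCSC transcripts with Bowtie2 2.1.0 and estimated expression with RSEM 1.2.15. The labels name mm10. The deposited table gives the signal of each gene in each mouse as CPM after TMM scaling. Columns of the authors with a signed fold score, a p-value and an FDR by edgeR hold their own comparison and were not used.

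Whole reads were recovered from the step of each mouse, and 100% of non-zero values came out whole within 0.01 reads. Since values were normalized, limma 3.58.1 (R 4.3.3) with a mean-variance trend was used on log2(value + 1) over the 11865 genes that reached 1 in 4 or more mice, and p-values were adjusted by Benjamini-Hochberg over all of them. This scale understates the change of low genes. The fit was tested on simulated data. Exact two-sided permutation tests (scipy 1.17.1) covered single values. edgeR 4.0.16 and DESeq2 1.42.0 ran on recovered reads as alternatives. Nothing in the labels says more of the samples than 1 mouse each, and depths cover counting error only.

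Lengths are of the shortest GENCODE M21 coding transcript of the best principal rank. Promoter windows are from RefSeq.

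Members and lists were chosen with earlier results of these data known. Genes named in the text are Irf4, members with an unadjusted p under 0.05, the 5 highest and 5 lowest by difference, by level per kilobase and the 5 most variable, the paralogue pairs, the stalk genes, Rpsa, Rps6, Rpl5, Rpl11, Rps27a, Fau and the members under the filter. Any other gene was picked with its values in view. GAS samples were not analysed here. A result on an item withheld for evaluation is not reported here.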

Additional observations from a re-analysis of the deposited data

Results flagged for a closer look

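In each group of 4 mice, the gap between the highest or lowest mouse and its nearest neighbour was compared with the whole range of the group. Of 108 groups examined, 8 had a gap past the 95% critical value of Dixon's test, and about 1 in 20 groups would do so by chance. Rpl36a was at 63.2 in MI4KO 4, against 76.2 to 78.6 in the other MI4KO mice. Rpl7 was at 361 in flox 3, against 327 to 331 in the other flox mice. The log2 ratio of Rpl3l to Rpl3 was 2.45 in flox 4, against 2.73 to 2.78. Rpl34-ps1, the pseudogene row that shares reads with Rpl34, was at 9.49 in MI4KO 4, against 40.8 to 41.7. Among genes that act with the ribosome, Eef2 was at 2315 in flox 2, against 2550.4 to 2577 in the other flox mice. Ddit4 was at 90.1 in MI4KO 3, against 10.3 to 13.5. Cdkn1a was at 49.9 in MI4KO 3, against 12.5 to 15.2, and at 16.2 in flox 2, against 14.4 to 14.5.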

How the results depend on the processing

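At an adjusted p under 0.05, and at an unadjusted p with a 1.5-fold limit, the count of ribosomal protein genes was 0 under all 21 alternatives. The count at an unadjusted p under 0.05, 1 as reported, was 0 with library-size scaling, TMM without these genes, limma without trend, the low or high run of mouse numbers as covariate and scaling to the ribosomal protein median, and 0 to 1 with 1 mouse left out. It was 2, Rpl3 and Rps13, without MI4KO 1 and MI4KO 2. The last 2 choices were made after seeing the data. Rpl26 kept its sign in all alternatives, from -0.27 to -0.12, with p from 0.00407 to 0.238 and adjusted p from 0.872 to 1.0.

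The count of pathway genes, 0 as reported, was 2 with no filter, 1 with median-of-ratios scaling, 3 with library-size scaling, 2 with TMM without ribosomal protein genes, and 1 each with limma without trend, edgeR, DESeq2, scaling to the ribosomal protein median and the set without MI4KO 1 and MI4KO 2. It was 3 without flox 1 and MI4KO 3, and 0 to 3 with 1 mouse left out. The genes were Eif4e in 9 alternatives, Larp4, Tsr1, Nop10, Bbc3, Max and Cdkn1a, and no adjusted p was below 0.795. Irf4 was no longer past an unadjusted p of 0.05 with median-of-ratios scaling (-0.44), library-size scaling (-0.42), TMM without ribosomal protein genes (-0.43), edgeR (-0.86), DESeq2 (-0.87), the covariate (-0.41), scaling to the ribosomal protein median (-0.43) and without MI4KO 1 and MI4KO 2 (-0.53), and it ranged from -0.60 to -0.31 with 1 mouse left out. The cause was not tested.

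Of 777 values of named genes under alternatives, 104 changed sign, in 26 of 37 genes, and 1 passed an unadjusted p of 0.05 that had not. The median of the members ranged from -0.072 to 0.025. The least read member outside the paralogues, Rpl3, had at least 979 reads per mouse, while Irf4, Rpl10l and Rpl39l were near the limit of 3 reads. No paired analysis was possible because the labels give each mouse its own number, with none shared between the groups, and do not say which mice were littermates of each other. The run of mouse numbers entered as a covariate only.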
